A study of Homo sapiens with 6 samples.

Results

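The snoRNA host transcripts SNHG1, SNHG3, SNHG5, SNHG6, SNHG7, SNHG8, SNHG12, SNHG15, SNHG16 and GAS5 were measured by RNA-seq in colorectal cancer stem cells with and without siRNA against PSCA. They were chosen by gene name, as non-coding genes that carry small nucleolar RNAs (snoRNAs), and they make up 10 of the 58735 genes in the expression table. All 10 reached a mean of at least 1 FPKM (fragments scaled to exon length and to the library total) over the 6 libraries and were tested.

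The cells were HCT116SCs, the CD44+CD326+ fraction of the human colorectal carcinoma line HCT116, labelled WT and grown as tumor spheres in serum-free medium. In the NC group, 3 libraries came from spheres dissociated and transfected with negative control siRNA, and in the siPSCA group 3 libraries came from spheres treated in the same way with siRNA against PSCA, a small surface protein of the Ly6 family. All cells were harvested 48 h after transfection. The labels list several PSCA siRNAs without saying which of them went into the sequenced cells, and they do not say whether the libraries of a group came from separate cultures, so p-values measure the spread between these libraries, which may be technical.

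A host transcript of this kind is made by RNA polymerase II and spliced. The snoRNAs lie in its introns and are trimmed out of the debranched intron by exonucleases, while the spliced exons leave the nucleus as a separate RNA. Box C/D snoRNAs guide ribose methylation and box H/ACA snoRNAs guide pseudouridylation, mostly of ribosomal RNA. Many hosts begin with a 5′ terminal oligopyrimidine (TOP) tract like that of ribosomal protein mRNAs, and the spliced RNA often carries short reading frames and is degraded by nonsense-mediated decay when it is translated. GAS5 was named for its accumulation in growth-arrested cells, and several SNHG transcripts are studied in colorectal cancer.

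Each library held between 16099716 and 17302219 reads on genes. NC 3 stood apart from the other control libraries, with a chi-square per gene of 24.4 against NC 1 and 19.6 against NC 2, compared with 2.47 between NC 1 and NC 2 and 2.40 to 4.15 among siPSCA libraries. The log2 fold change between groups went with the GC content of the transcript across 13792 tested genes (Spearman's rho 0.66 over genes that share the same 6 libraries), and NC 3 differed from the other NC libraries along the same axis (rho -0.56). A second fit was therefore made after subtraction of each library's own dependence on GC content and on the length of all annotated exons together (the trend). It is given for the hosts. For other genes it is given where it ended or made a call or moved the log2 difference by more than 1.5 times. Values without NC 3 are given where they matter. PSCA itself was hardly read: 4, 12 and 15 reads in NC and 9, 9 and 7 in siPSCA, which overlap, so the target gene does not check the labels. The sort marker CD44 was lower in siPSCA (82.6 ± 4.36 against 60.7 ± 1.51 FPKM, SD, n = 3, limma adjusted p = 0.00193, and a log2 fold change of -0.44 that became -0.29 with the trend removed), and EPCAM, which encodes CD326, overlapped between groups (107 ± 14.4 against 94.97 ± 2.10, adjusted p = 0.199). Of 6 epithelial markers 5 were read in every library and the list summed to 330 to 359 FPKM, whereas VIL1 had 0 to 5 reads. The summed markers of blood and of endothelium stayed at or under 0.153 FPKM in every library. The fibroblast list summed to 3.35 to 6.51 FPKM, nearly all of it COL1A1, with COL1A2 and DCN at 0 to 2 reads.

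Per length of exon, SNHG6 and GAS5 were the most abundant of the hosts. In NC, SNHG6 stood at 80.8 ± 9.29 FPKM and GAS5 at 78.9 ± 2.47, and their ranges overlapped. SNHG1 followed at 37.0 ± 2.61, below every value of GAS5 and above every value of SNHG8. Then came SNHG8, SNHG3, SNHG16 and SNHG5, from 27.2 down to 15.3 FPKM on average, where each overlapped the next. SNHG12, SNHG15 and SNHG7 closed the order between 6.98 and 5.80 FPKM, overlapping each other and lying below SNHG5. In siPSCA, GAS5 and SNHG6 again overlapped at the top. By mean FPKM SNHG7 moved from place 10 to place 7, where it overlapped SNHG5. Its mean in NC was lowered by NC 3, at 2.98 FPKM. In NC 1 and NC 2 it had 7.71 and 6.70 FPKM, against 6.87 and 6.77 for SNHG15. The FPKM of these genes divides by the union of all annotated exons, which for SNHG1 covers 95.6% of the gene and for SNHG5 15.8%, and the GAS5 union of 3631 bases compares with a median annotated transcript of 688 bases, so the order between genes carries the annotation as well as the RNA. Without division by length, GAS5 had the most reads in every library and SNHG1 ranked second in each group. Together the 10 hosts took 0.0832% to 0.0906% of the reads in NC and 0.0848% to 0.0887% in siPSCA.

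GAS5, SNHG5 and SNHG6 were lower in siPSCA. GAS5 (ENSG00000234741, chr1:173863900-173868882 on GRCh38, minus strand) had 76.03, 80.5 and 80.1 FPKM in NC and 60.5, 60.3 and 59.3 in siPSCA. These values rest on 3716 to 5089 reads per library, and no siPSCA library reached the lowest control. In RNA of bulk cells, fewer cells of a kind and less RNA per cell cannot be told apart. The mean fell by 23.9%, with a log2 fold change of -0.39 (SE 0.04, 95% confidence interval -0.49 to -0.28, limma adjusted p = 0.00161). With the GC and length trend removed the difference was -0.23 (adjusted p = 0.00582). GAS5 encodes an RNA that binds the DNA-binding domain of the glucocorticoid receptor, besides carrying a series of box C/D snoRNAs, which are not analysed here.

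SNHG5 (ENSG00000203875, chr6:85660950-85678748, minus strand) carries box C/D snoRNAs of the U50 family. Its level was 14.4, 15.6 and 15.8 FPKM in NC and 11.8, 12.5 and 11.8 in siPSCA, so the highest siPSCA library lay under the lowest control. The mean fell by 21.3% (log2 fold change -0.32, SE 0.06, 95% confidence interval -0.46 to -0.18, limma adjusted p = 0.00563). With 47.1% GC, close to the median of 48.1% over all tested genes, SNHG5 hardly moved when the trend was removed, at -0.32 (adjusted p = 0.00351).

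SNHG6 (ENSG00000245910, chr8:66921684-66926398, minus strand) is the host of the box C/D snoRNA SNORD87. It had 73.4, 77.7 and 91.2 FPKM in NC, where NC 3 was the highest, and 59.7, 50.3 and 57.3 in siPSCA. The groups did not overlap, and the mean fell by 30.9%. The log2 fold change was -0.52 (SE 0.10, 95% confidence interval -0.77 to -0.28, limma adjusted p = 0.00778), with -0.43 without NC 3 and -0.34 with the trend removed (adjusted p = 0.00554 and 0.0251). Of its 1247 exonic bases 29.3% are also exons of MCMDC2, a gene that stayed under 0.21 FPKM in every library.

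GAS5 and SNHG6 are, at 42.2% and 42.0% GC, the members of lowest GC content, and their differences shrank when the trend was removed. All 3 declines nevertheless kept their call, at an adjusted p under 0.05, in each of the 15 alternatives.

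SNHG1, SNHG7, SNHG12 and SNHG15 were higher in siPSCA. SNHG1 (ENSG00000255717, chr11:62851988-62855914, minus strand), also known as the U22 host gene, carries snoRNAs in nearly all of its introns. It had 38.9, 38.1 and 34.0 FPKM in NC and 44.8, 44.7 and 42.6 in siPSCA, without overlap. The mean was 19.0% higher (log2 fold change 0.25, SE 0.06, 95% confidence interval 0.09 to 0.40, limma adjusted p = 0.0201). Its GC content is 43.1%, and the difference was larger with the trend removed, at 0.38 (adjusted p = 0.0120). The call was lost without siPSCA 1 (adjusted p = 0.0718) and without siPSCA 2 (0.0729), while the difference remained at 0.23 and 0.24.

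SNHG15 (ENSG00000232956, chr7:44983023-44986961, minus strand), a short-lived RNA that hosts the H/ACA snoRNA SNORA9, was listed at 6.87, 6.77 and 5.43 FPKM in NC and at 9.72, 8.47 and 8.32 in siPSCA. Every siPSCA library lay above every control, and the mean was 1.39-fold higher. The log2 fold change of 0.42 (SE 0.10, 95% confidence interval 0.18 to 0.67, limma adjusted p = 0.0157) became 0.35 with the trend removed (adjusted p = 0.0276). Its call was lost without siPSCA 1 (adjusted p = 0.0567).

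SNHG12 (ENSG00000197989, chr1:28578538-28583132, minus strand) carries a C/D snoRNA and a group of H/ACA snoRNAs. Its level was 7.95, 7.31 and 5.67 FPKM in NC and 10.4, 10.1 and 9.12 in siPSCA, again without overlap and with a mean 1.41-fold higher. The log2 fold change was 0.46 (SE 0.12, 95% confidence interval 0.17 to 0.74, limma adjusted p = 0.0205). At 56.6% GC this difference did depend on the trend: it was 0.15 (adjusted p = 0.122) with the trend removed. It also missed the threshold without siPSCA 1 (adjusted p = 0.0727) and without siPSCA 2 (0.0675).

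SNHG7 (ENSG00000233016, chr9:136721366-136728184, minus strand), host of the SNORA17 pair, had the largest fold of the 10 in the fit to all libraries as deposited, though not with the trend removed, where SNHG1 was level with it at 0.38. It had 7.71, 6.70 and 2.98 FPKM in NC and 13.6, 13.2 and 11.3 in siPSCA, on 223 to 563 and 894 to 1022 reads. NC 3 lay far under the other controls, and all controls lay under all siPSCA libraries. The mean was 2.19-fold higher, with a log2 fold change of 1.09 (SE 0.29, 95% confidence interval 0.38 to 1.79, limma adjusted p = 0.0225). Without NC 3 it was 0.74 (adjusted p = 0.00170). SNHG7 has the highest GC content of the members, 65.9%, and with the trend removed the difference was 0.38 with an adjusted p of 0.0531. The call was also lost without siPSCA 1 (adjusted p = 0.0743) and without siPSCA 2 (0.0685). Of its exonic sequence 1094 bases (25.2%) are shared with the protein-coding gene FAM69B on the other strand, and the strand setting of the counting is not given in the sources used here, so reads of this stretch cannot be told apart.

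SNHG3, SNHG8 and SNHG16 did not pass the test. SNHG3 (ENSG00000242125, chr1:28505980-28510892, plus strand), host of the SNORA73 pair, had 21.3, 22.3 and 17.3 FPKM in NC and 20.6, 19.5 and 20.9 in siPSCA. All siPSCA values lay inside the range of the controls, and the 95% confidence interval of the log2 difference ran from -0.23 to 0.25 (limma adjusted p = 0.938). SNHG8 (ENSG00000269893, chr4:118278709-118279823, plus strand), the host of SNORA24, had 31.9, 28.0 and 21.7 FPKM in NC against 29.01, 28.8 and 26.5 in siPSCA. Its interval was -0.27 to 0.39 (adjusted p = 0.729). SNHG16 (ENSG00000163597, chr17:76557766-76565348, plus strand), which carries the SNORD1 family, had 20.0, 18.2 and 15.1 FPKM in NC and 18.5, 17.4 and 18.05 in siPSCA, with an interval of -0.22 to 0.27 (adjusted p = 0.858). In all 3 the lowest value was NC 3. Without that library the differences turned to the negative side, at -0.10, -0.09 and -0.08, with adjusted p-values of 0.127, 0.330 and 0.229. They were 0.04, 0.08 and 0.13 with the trend removed (limma adjusted p = 0.764, 0.624 and 0.421).

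Over the 10 hosts, 7 passed the adjusted threshold of 0.05 (70.0%), 4 higher and 3 lower. Among all 13796 tested genes 50.7% passed, 26.6% higher and 24.2% lower. The groups did not overlap for 7 of the hosts and for 64.5% of all tested genes. With the GC and length trend removed 5 hosts passed, all of them among the 7 (SNHG1 and SNHG15 higher, GAS5, SNHG5 and SNHG6 lower), against 39.7% of all genes. The count of hosts was 3 without siPSCA 1 and 4 without siPSCA 2. In these settings 4627 and 4734 of all 13796 tested genes passed, against 7001 with all libraries. The median log2 fold change was 0.04 in the hosts and 0.01 over all tested genes, and the median of the hosts was -0.085 without NC 3. Calls in both directions thus stood beside each other in a group whose median lay near 0.

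**Figure D1:**
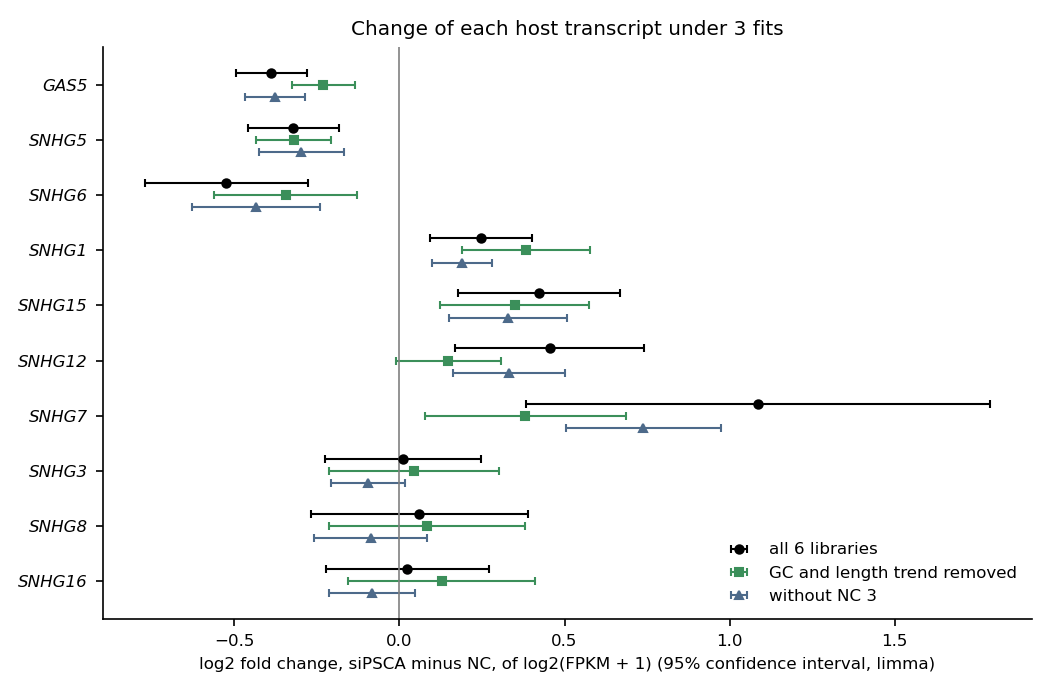
Log2 fold change (siPSCA minus NC, of log2(FPKM + 1), horizontal axis) with its 95% confidence interval for each host in 3 fits: all 6 libraries (black circles), GC and length trend removed (green squares) and without NC 3 (blue triangles). GAS5, SNHG5 and SNHG6 lie under 0 and SNHG1, SNHG15 and SNHG7 above 0 in all 3 fits, whereas the interval of SNHG12 reaches 0 once the trend is removed, and SNHG7 goes from 1.09 to 0.38.

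The snoRNAs inside these genes have rows of their own in the table: 25 rows lie inside the hosts, 7 in SNHG1, 5 in SNHG12, 4 in SNHG7, 3 in SNHG16, 2 in SNHG3 and 1 each in SNHG5, SNHG6, SNHG8 and SNHG15. Some loci have more than 1 row, among them SNORA16A and SNORA17B. Of these rows 21 lie wholly inside the host's exons, taken as the union over all of its transcripts, and all 21 had 0 reads in every library. Another row that lies partly in host exons also had 0. Only the 3 rows in host introns, SNORA73B, SNORD99 and SNORD1B, had reads. The same division held over the whole table: 0 of 142 snoRNA rows wholly inside the exons of a host had a read in any library, against 194 of 403 rows in host introns (48.1%). A value of 0 in such a row therefore gives no measure of the snoRNA, and no embedded snoRNA could be followed in SNHG1, SNHG5, SNHG6, SNHG7, SNHG8 or SNHG15.

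**Figure D2:**
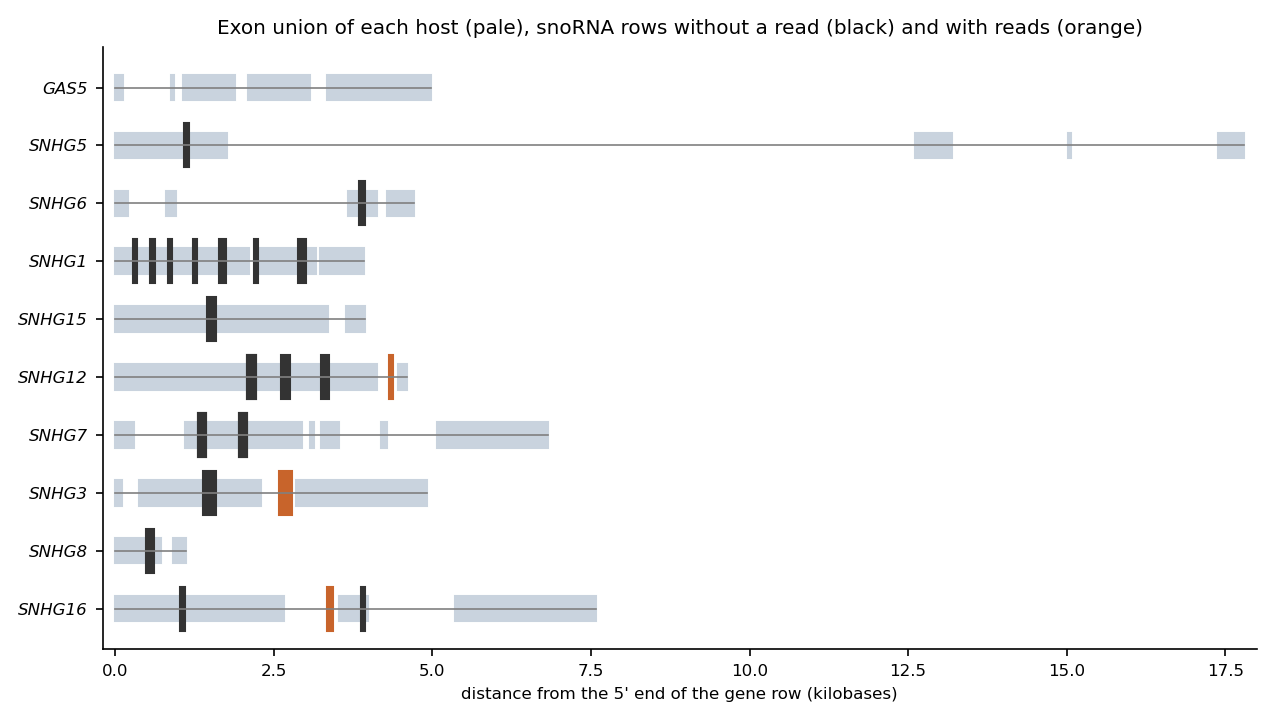
The exon union of each host gene (pale blocks), drawn from its 5′ end in kilobases (horizontal axis), with the snoRNA rows inside it. Rows without a read in any library (black) lie on exon blocks, except that SNORD30 in SNHG1 lies on one only in part. The 3 rows with reads (orange), in SNHG12, SNHG3 and SNHG16, lie between blocks. The rows of GAS5 are not analysed here.

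SNORA73B, an H/ACA snoRNA known as U17b that takes part in early cleavage of the ribosomal RNA precursor, had 48, 47 and 59 reads in NC and 78, 70 and 89 in siPSCA. All siPSCA libraries were higher, with 14.7 ± 1.87 against 21.95 ± 2.39 FPKM and a log2 fold change of 0.55 (SE 0.11, limma adjusted p = 0.00918). With the trend removed it was 0.44 (adjusted p = 0.0594). The exons of its host SNHG3 overlapped between the groups, as given above. SNORD99 in SNHG12 had 13, 8 and 13 reads in NC and 18, 14 and 11 in siPSCA (log2 fold change 0.28, adjusted p = 0.385, and 0.43 with the trend removed, adjusted p = 0.250). SNORD1B in SNHG16 had 10, 4 and 3 reads against 11, 14 and 8 (0.87, adjusted p = 0.103). SNORD1B passed with the trend removed (1.15, adjusted p = 0.0474) and without NC 1 (adjusted p = 0.0104). Both overlapped between groups. Reads on such a row can come from the mature snoRNA, from a degraded fragment or from the unspliced host, which cannot be told apart in these counts. The row of SNORA73B also lies within the span of the protein-coding gene RCC1, described below, on the same strand. Unspliced RCC1 RNA is therefore a further possible source of its reads, and the sources were not separated.

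The sequences of these snoRNAs, as printed in the reference transcripts of GENCODE 29, show the 2 kinds of guide. They are given because they are the embedded products by which the hosts are classed. In the box C/D snoRNAs SNORD27 (in SNHG1, chr11:62855012-62855083, minus strand), SNORD50B (in SNHG5, chr6:85677589-85677658, minus strand) and SNORD1B (in SNHG16, chr17:76561109-76561192, plus strand), capitals mark the letters TGATGA of the C box near the 5′ end and the last CTGA, the D box, near the 3′ end. In the H/ACA snoRNAs SNORA24 (in SNHG8, chr4:118279190-118279320, plus strand) and SNORA73B (in SNHG3, chr1:28508559-28508762, plus strand) they mark ACA at 3 bases from the 3′ end.
SNORD27: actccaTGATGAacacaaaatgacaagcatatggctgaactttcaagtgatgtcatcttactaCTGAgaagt
SNORD50B: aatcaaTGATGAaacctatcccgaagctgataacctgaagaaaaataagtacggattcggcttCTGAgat
SNORD1B: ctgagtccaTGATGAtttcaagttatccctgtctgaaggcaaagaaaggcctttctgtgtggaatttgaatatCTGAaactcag
SNORA24: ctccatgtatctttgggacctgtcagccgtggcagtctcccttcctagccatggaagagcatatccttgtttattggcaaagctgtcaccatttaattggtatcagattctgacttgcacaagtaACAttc
SNORA73B: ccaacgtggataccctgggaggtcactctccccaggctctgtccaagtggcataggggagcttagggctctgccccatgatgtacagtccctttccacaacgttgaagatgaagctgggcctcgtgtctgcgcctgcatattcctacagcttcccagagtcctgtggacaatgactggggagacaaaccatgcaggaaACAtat
Among all 943 snoRNA transcripts of the release, 35.6% hold TGATGA, 70.9% hold CTGA anywhere on the strand of the transcript, and 29.8% end in ACANNN.

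The first bases of the hosts were compared with the TOP form, a C at the first position followed by at least 4 pyrimidines. Among the 129 annotated transcripts of the 10 hosts 21 begin in this way (16.3%), against 4979 of 206694 transcripts in the whole release (2.41%). By gene, 8 of the 10 hosts have such a transcript, against 3865 of 58721 genes in the release. A gene with many annotated transcripts has more occasions to hold 1 such start. Transcripts of 1 gene share starts and are not independent, and annotated ends need not be the ends used in these cells. SNHG7 and SNHG15, both higher in siPSCA, have no annotated transcript of this form. SNHG1 and SNHG12, also higher, have 1 of 25 and 4 of 17, and among the hosts that fell GAS5 has 6 of 29, SNHG5 3 of 23 and SNHG6 3 of 5. The most frequent such start is shown for a pair that fell (GAS5, SNHG5), one that rose (SNHG12) and a pair not past the threshold (SNHG16, SNHG8), as 30 bases from the annotated start with the pyrimidine run in capitals.
GAS5: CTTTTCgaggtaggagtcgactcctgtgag
SNHG5: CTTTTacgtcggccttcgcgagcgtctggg
SNHG12: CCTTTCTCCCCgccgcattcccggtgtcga
SNHG16: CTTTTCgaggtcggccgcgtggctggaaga
SNHG8: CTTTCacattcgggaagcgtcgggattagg
A start of this form was thus found among hosts that were lower, that were higher and that did not pass the test.

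SNHG1, SNHG3 and GAS5 start within 2000 bases of the start of an expressed protein-coding gene, and their levels were compared with those partners. SLC3A2, the heavy chain of the CD98 amino acid transporter, starts 188 bases from SNHG1 on the opposite strand. It had 33.0, 31.3 and 23.0 FPKM in NC and 48.1, 47.9 and 43.1 in siPSCA, so both genes of this pair were higher without overlap. Its log2 fold change was 0.67 (SE 0.14, limma adjusted p = 0.00926), and 0.33 with the trend removed (adjusted p = 0.0144). The ratio of SLC3A2 to SNHG1 was 0.849, 0.822 and 0.676 in NC and 1.07, 1.07 and 1.01 in siPSCA, higher in all siPSCA libraries as deposited. SLC3A2 has 57.4% GC against 43.1% in SNHG1, and with the trend removed their log2 differences were 0.33 and 0.38, so the partner no longer showed the larger one.

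RCC1, the chromatin-bound exchange factor of the GTPase Ran, starts 37 bases from SNHG3 on the same strand and shares 242 exonic bases with it. RCC1 had 23.6, 22.8 and 21.0 FPKM in NC and 30.9, 31.5 and 29.8 in siPSCA (log2 fold change 0.44, SE 0.06, limma adjusted p = 0.00242, and 0.32 with the trend removed, adjusted p = 0.00354). SNHG3 overlapped between the groups, and the ratio of RCC1 to SNHG3 went from 1.12 ± 0.0972 to 1.51 ± 0.0956 (SD, n = 3). ZBTB37, a zinc finger gene that starts 800 bases from GAS5 on the opposite strand, went from 2.91 ± 0.250 to 2.03 ± 0.124 FPKM (log2 fold change -0.37, SE 0.08, adjusted p = 0.0112), lower like GAS5, but at 39.3% GC its difference was 0.06 with the trend removed (adjusted p = 0.450). Its ratio to GAS5 overlapped between the groups (0.0369 ± 0.00306 against 0.0338 ± 0.00222). In exact 2-sided permutation tests of these 3 ratios the p-values were 0.1, 0.1 and 0.3, or 0.15, 0.15 and 0.3 after adjustment over the 3 pairs; with 3 libraries against 3 the test cannot go below 0.1.

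Other neighbours overlap a host. FAM69B, which shares exons with SNHG7, went from 2.36 ± 0.633 to 4.63 ± 0.173 FPKM (log2 fold change 0.76, limma adjusted p = 0.00728, and 0.16 with the trend removed, adjusted p = 0.0522), in the direction of SNHG7. Of the 2704 exonic bases of FAM69B 1094 are shared with SNHG7. Without the strand setting, reads of the 2 genes there cannot be told apart. TRNAU1AP, which overlaps SNHG12 by 8 exonic bases, overlapped between the groups (log2 fold change -0.06, adjusted p = 0.462), but passed as lower with the trend removed (-0.24, adjusted p = 0.0368). The antisense transcript GAS5-AS1, which shares 42 exonic bases with GAS5, had 0.772, 0.910 and 1.76 FPKM in NC and 1.79, 2.03 and 1.34 in siPSCA, with overlap (0.36, adjusted p = 0.167). Its difference passed with the trend removed (0.71, adjusted p = 0.0262) and without NC 3 (0.56, adjusted p = 0.0205), on the opposite side from GAS5. The remaining neighbours lay under 1 FPKM on average.

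Other genes of the pathway were taken from lists written by role. Beyond the 10, 14 further hosts of a list of 20 rows were expressed. Of these, 7 passed the test (50%, against 50.7% of all tested genes), 6 higher and 1 lower. The median log2 fold change of the 14 was 0.34. The list was written as non-coding hosts, but C6orf48, among the 14 and the 7, is labelled protein-coding. ZFAS1, host of the SNORD12 family, fell from 23.5 ± 1.25 to 15.1 ± 0.876 FPKM (log2 fold change -0.60, SE 0.06, limma adjusted p = 0.00141), and the difference was -0.86 with the trend removed. SNHG25 rose from 0.912 ± 0.446 to 2.58 ± 0.0424 FPKM (0.93, SE 0.18, adjusted p = 0.00772, and 0.54 with the trend removed, adjusted p = 0.00597), and C6orf48, now also called SNHG32, from 14.8 ± 4.07 to 24.1 ± 3.80 (0.69, SE 0.22, adjusted p = 0.0386). The call of C6orf48 was lost with the trend removed (adjusted p = 0.0541), without NC 2 (0.0544), without siPSCA 1 (0.120) and without siPSCA 2 (0.105). The list held 5 calls with the trend removed, 4 higher and 1 lower, where 39.7% of all genes passed.

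Non-coding genes were also gathered by position, as all rows beyond the members with a snoRNA row inside. This set shares genes with the list above, among them ZFAS1, SNHG25 and SNHG11. Of 76 such genes 21 were tested and 9 passed (42.9%, against 50.7% of all tested genes), 5 higher and 4 lower. The median log2 fold change was 0.08. The second fit gave 8 calls, 6 higher and 2 lower, where 39.7% of all genes passed. TMEM161B-AS1 was lower (2.94 ± 0.262 against 1.81 ± 0.219 FPKM, log2 fold change -0.49, limma adjusted p = 0.00740), and SNHG11 was higher (2.06 ± 0.489 against 3.40 ± 0.570, 0.53, adjusted p = 0.0275). The call of SNHG11 was lost with the trend removed (0.26, adjusted p = 0.124), without NC 2 (0.0687), without siPSCA 1 (0.0858) and without siPSCA 2 (0.0909).

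Protein-coding genes with a snoRNA row inside were gathered by position alone, and they moved in both directions. A row inside a gene does not show that a snoRNA is made from it. The set shares genes with the ribosomal protein list below, RPL23A among them. Of 255 such genes 186 were tested and 110 passed (59.1%, against 50.7% of all tested genes). Of the 110, 46 were higher and 64 lower, and the median of the tested genes of this set was -0.07. With the trend removed 94 passed, 44 higher and 50 lower, where 39.7% of all genes passed. TPT1, which encodes the TOP-regulated protein TCTP, had 163, 174 and 242 FPKM in NC and 99.6, 93.0 and 101 in siPSCA (log2 fold change -0.95, SE 0.15, limma adjusted p = 0.00377). The groups did not overlap. N4BP2 was also lower (3.26 ± 0.0416 against 1.37 ± 0.248 FPKM, -0.85, adjusted p = 0.00159, and -0.39 with the trend removed, adjusted p = 0.0105). RAMP1, a receptor activity-modifying protein, rose from 3.68 ± 0.869 to 11.8 ± 1.87 FPKM (1.46, SE 0.17, adjusted p = 0.00167), and was at 0.78 with the trend removed (adjusted p = 0.00165). RPL23A, host of the SNORD42 pair, rose from 40.3 ± 10.7 to 79.9 ± 6.06 FPKM (1.00, SE 0.19, adjusted p = 0.00770).

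The proteins that bind mature snoRNAs include several that rose. Of the 8 core proteins of both particle classes, 5 passed the test (62.5%, against 50.7% of all tested genes) and all 5 were higher, as 26.6% of all tested genes were, with a median log2 fold change of 0.24. NHP2, an H/ACA core protein, had 13.6, 12.7 and 17.3 FPKM in NC and 39.0, 37.6 and 34.0 in siPSCA. The groups lay far apart, with a log2 fold change of 1.30 (SE 0.12, limma adjusted p = 0.000948) and 1.01 with the trend removed (adjusted p = 0.00455). NOP10, which sits beside NHP2 in the H/ACA particle, went from 51.7 ± 5.82 to 88.0 ± 5.60 FPKM (0.76, SE 0.09, adjusted p = 0.00196). The count of 5 was 3 without NC 2, without siPSCA 1 or without siPSCA 2, and 4 with the trend removed. Of all 13796 tested genes 6015, 4627, 4734 and 5482 passed in these settings, in that order, against 7001 with all libraries as deposited.

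Assembly factors, which load these proteins onto the nascent snoRNA, gave 2 calls of 14 (14.3%, against 50.7% of all tested genes), 1 higher and 1 lower. They gave 6 with the trend removed, of which 5 were higher and 1 lower, where 39.7% of all genes passed. RPAP3, part of the R2TP chaperone complex, went from 10.7 ± 0.451 to 7.73 ± 0.621 FPKM (log2 fold change -0.42, limma adjusted p = 0.00457), but at 35.7% GC the difference was -0.05 with the trend removed (adjusted p = 0.505). RUVBL2, an ATPase of the same complex, was at the threshold (31.1 ± 2.40 against 35.8 ± 1.39 FPKM, 0.20, adjusted p = 0.0499), and turned to -0.25 with the trend removed (adjusted p = 0.197). It lost its call without any of the libraries NC 1, NC 2, siPSCA 1, siPSCA 2 and siPSCA 3, which left 1 call in the list in 4 of those 5 cases.

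Among 17 factors of snoRNA release and trimming 6 passed (35.3%, against 50.7% of all tested genes), 2 higher and 4 lower. The balance turned with the trend removed, where 8 passed, 6 higher and 2 lower, against 39.7% of all genes. The median log2 fold change went from -0.01 to 0.16. The exonuclease XRN1 went from 7.41 ± 0.499 to 4.10 ± 0.365 FPKM (log2 fold change -0.72, SE 0.08, limma adjusted p = 0.00140), and DIS3, a catalytic subunit of the exosome, from 14.7 ± 1.28 to 8.56 ± 0.237 (-0.71, SE 0.07, adjusted p = 0.00116). The exosome core subunits EXOSC4 and EXOSC6 were higher, by 0.73 and 0.54 (adjusted p = 0.00254 and 0.00468). These 4 named calls all held with the trend removed, at -0.28, -0.34, 0.44 and 0.63. XRN2, EXOSC10 and DBR1 of the same list, named after their values were seen, did not pass. Their log2 fold changes were -0.20, 0.02 and 0.005 (limma adjusted p = 0.154, 0.741 and 0.956). With the trend removed DBR1 passed as higher (0.17, adjusted p = 0.0237), and XRN2 and EXOSC10 did not pass (adjusted p = 0.556 and 0.856).

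Nonsense-mediated decay factors, which limit the spliced host RNAs, split as well. Of 19, 6 were higher and 3 lower (47.4% called, against 50.7% of all tested genes). With the trend removed 7 were higher and 2 lower, where 39.7% of all genes passed. UPF1, the central helicase, went from 15.2 ± 1.79 to 23.3 ± 0.992 FPKM (log2 fold change 0.59, SE 0.09, limma adjusted p = 0.00370), and its partner UPF2 from 15.3 ± 1.49 to 9.56 ± 0.859 (-0.63, SE 0.09, adjusted p = 0.00296). With the trend removed these were 0.17 and -0.37 (adjusted p = 0.0162 and 0.00503). The helicase DHX34 was higher by 0.63 (adjusted p = 0.00557) and missed the threshold with the trend removed (0.13, adjusted p = 0.0853), and NBAS was lower by 0.42 (adjusted p = 0.00590).

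Regulators of TOP RNAs and of mTORC1, the kinase complex that controls their translation, gave 11 calls of 15 (73.3%, against 50.7% of all tested genes), 7 higher and 4 lower. There were 5 with the trend removed, all higher, where 39.7% of all genes passed, and among them LARP4, named after its values were seen, turned from -0.29 to 0.14. The count was 6 without siPSCA 1 and 7 without siPSCA 2. Of all 13796 tested genes 4627 and 4734 passed in these settings, against 7001 with all libraries. The TOP-binding proteins TIA1 and TIAL1 were lower by 0.39 and 0.35 (limma adjusted p = 0.00264 and 0.00250), and were at -0.01 and -0.03 with the trend removed (adjusted p = 0.911 and 0.478). LARP1, of the same list and also named after its values were seen, was higher by 0.41 (limma adjusted p = 0.00228). With the trend removed LARP1 kept its call at 0.33 (adjusted p = 0.00249). The mTORC1 subunits MLST8 and RPTOR were higher by 0.68 and 0.62 (adjusted p = 0.0150 and 0.00339). With the trend removed RPTOR kept its call at 0.25 (adjusted p = 0.0111), and MLST8 did not (0.04, adjusted p = 0.670). MLST8 also missed the threshold without siPSCA 1 (adjusted p = 0.0572) and without siPSCA 2 (0.0522).

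Cytosolic ribosomal protein genes, whose mRNAs carry the TOP tract that many hosts share, gave 41 calls of 79 (51.9%, against 50.7% of all tested genes), 13 higher and 28 lower, and a median log2 fold change of -0.07. With the trend removed the counts were 12 higher and 30 lower, where 39.7% of all genes passed. The count of 41 was 27 without siPSCA 1, 23 without siPSCA 2 and 24 without siPSCA 3. Over all 13796 tested genes the count likewise went from 7001 to 4627, 4734 and 5511 in these settings. RPL23 went from 102 ± 16.4 to 64.2 ± 2.31 FPKM (log2 fold change -0.65, limma adjusted p = 0.00519) and RPS20 from 237 ± 58.1 to 149 ± 3.25 (-0.64, adjusted p = 0.0178), which missed the threshold without siPSCA 1, siPSCA 2 or siPSCA 3 (adjusted p = 0.0545, 0.0559 and 0.0541). RPL41 rose from 289 ± 20.3 to 461 ± 26.9 FPKM (0.67, adjusted p = 0.00141).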

How the data were processed

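RNA of HCT116SCs was sequenced in 6 libraries, 3 NC and 3 siPSCA, built with the NEBNext Ultra RNA kit; aligner, counting program and strand setting are not given in the sources used here. The authors deposited FPKM values for 58735 genes, aligned to GRCh38 per the labels, and all 58735 gene positions are those of GENCODE 29. FPKM times gene length was a whole multiple of 1 read for 100% of values (tolerance 0.01 reads), so reads were recovered. Groups follow the labels; the titles of siPSCA 2 and siPSCA 3 carry other numbers after HCT, while their other labels name HCT116, and they were kept.

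limma 3.58.1 in R 4.3.3 (lmFit, eBayes with a trend) was fitted to log2(FPKM + 1) of the 13796 genes whose FPKM averaged 1 or more, with Benjamini-Hochberg adjustment and a threshold of 0.05. Fold changes are on the log2(FPKM + 1) scale and understate those of low genes. In the second fit a loess curve on GC content and length was subtracted from each library. GC content is that of the longest transcript in GENCODE 29, and length is that of the union of all annotated exons. Tables and figures used Python 3.11.15, numpy 2.4.6, pandas 2.3.3 and matplotlib 3.10.9. The scripts were tested on simulated data. The alternatives were a pseudocount of 0.1, no minimum, TPM, median-of-ratios scaling, limma-voom on recovered reads, trend removal, a replicate block and each library left out, with 2 combinations added after the data were seen. The members and the gene lists were chosen with earlier results of these data known. Named genes are all members, the snoRNA rows inside them, neighbours that overlap or start within 2000 bases, and up to 2 rises and 2 falls of largest size per list. Genes said to be named after their values were seen stand outside this rule.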

Additional observations from a re-analysis of the deposited data

How the results depend on the processing

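Of 15 alternatives, all kept the sign of each of the 7 called hosts, and GAS5, SNHG5 and SNHG6 passed in every one. With each library left out, between 3 and 7 hosts passed, 4627 to 7425 of all genes passed, and the median of the hosts ranged from -0.085 (without NC 3) to 0.14 on the log2 scale. SNHG7 and SNHG12 also missed the threshold with no FPKM minimum (limma adjusted p = 0.0636 and 0.0549). Deviations of same-numbered libraries from their group means correlated at 0.0955, 0.0132 and 0.134. NC 1 correlated best with siPSCA 1 and NC 3 with siPSCA 3, but NC 2 with siPSCA 1. With 3 libraries per group, these values cannot tell whether replicate numbers pair the libraries. With the replicate block 7 hosts and 6725 genes passed, and 1 assembly factor. With the block and the trend removed together these were 6 hosts and 4624 genes, 3 snoRNP core proteins, 5 assembly factors and 4 mTORC1 and TOP regulators. Without the minimum 1 assembly factor and 24 ribosomal protein genes passed, with a pseudocount of 0.1, 1 assembly factor, and with TPM 3 core proteins. With the trend removed 6 assembly factors and 5 mTORC1 and TOP regulators passed, and without NC 3 as well 7, 6 and, of release and trimming, 11. With each library left out the ranges were 3 to 6 core proteins, 1 to 3 assembly factors, 4 to 9 release and trimming factors, 6 to 12 mTORC1 and TOP regulators and 23 to 51 ribosomal protein genes. The causes of these shifts were not tested. A fit with a library left out also rests on fewer libraries, and that effect was not tested apart. The 3 snoRNA rows with reads rest on 3 to 89 reads per library.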
